A study of Mus musculus with 28 samples.

Results

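Gdf15, Adm2, Stra6, Car6 and Avil are 5 of the 55291 genes in the deposited tables. They were chosen by symbol as genes with large rises under BAY-876, a compound that blocks GLUT1, the glucose carrier made from Slc2a1. Which contrast served the choice is not recorded, so every comparison with against without the inhibitor, also in the presence of TNF, is a description here and carries no test of the members. Tests of the members concern TNF and the sorted cells, although the 32 h comparisons share libraries.

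Most of these genes have known ties to cellular stress. In the integrated stress response, kinases of the translation factor eIF2alpha slow protein synthesis and at the same time raise the translation of the transcription factor ATF4, which induces further factors such as CHOP, the product of Ddit3. GDF15 is a secreted protein of the TGF-beta family that acts on the brainstem receptor GFRAL with its partner RET, and its gene responds to ATF4, CHOP and p53. ADM2, or intermedin, is a secreted peptide of the calcitonin and adrenomedullin family. STRA6 is a membrane receptor that takes up retinol from its carrier RBP4. CAR6 is a secreted carbonic anhydrase with a stress-induced intracellular form, and AVIL, or advillin, binds actin filaments as a member of the gelsolin and villin family. Car6 and Avil were both described as genes downstream of CHOP.

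The values come from 28 RNA-seq libraries in 8 groups, and the cultured cells were LLC, a mouse lung carcinoma line labelled wild type. In the 36 h experiment, cells had vehicle or 200 nM BAY-876, with 3 libraries per group. In the 32 h experiment, cells were left alone or kept in 200 nM BAY-876 for 24 h, and 20 ng/ml TNF, a cytokine of inflammation that activates NF-kappaB, was then added or omitted for 32 h. Its 4 groups had 3 libraries each and are named for what the cells received: control for neither agent, BAY-876 or TNF for 1 of them, and BAY-876 with TNF. Whether the inhibitor was still present during the second period is not given. On day 16, 5 libraries of tumour cells and 5 of OT1 cells, which are CD8 T cells with a transgenic receptor for an ovalbumin peptide, were made from sorted cells. They came from subcutaneous tumours of LLC cells carrying OVA and NGFR, grown in mice without Rag1, which cannot form T or B cells, and the mice had received activated OT1 cells on day 9. No day 16 group had BAY-876 or added TNF. The labels do not say whether replicates were separate cultures or animals, so p-values reflect the spread among these samples alone, and that spread may be technical.

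Summed normalized counts were 16847994 to 17134536 per library at 36 h. The other 2 tables are in transcript abundance scaled to a fixed total (TPM), which hide the sequencing depth, and 11884 to 12410 genes reached 1 TPM per library at 32 h and 12458 to 13428 on day 16. In the 32 h cultures the summed T cell markers were at most 1.28 TPM and the summed endothelial markers at most 1.05 TPM. Summed myeloid markers were 11.6 to 13.3 TPM in control, 16.6 to 19.5 TPM with BAY-876, 15.9 to 16.5 TPM with TNF and 20.4 to 22.01 TPM with both. Only 2 of the 8 myeloid markers passed the filter, and they went opposite ways: with BAY-876 Cd14 rose by 0.78 and Lyz2 had -0.89 (both past limma's threshold), and with TNF they had 0.66 and -1.23 (both past it). Summed fibroblast markers were 840.1 to 863.3 TPM in control, 829.3 to 839.4 TPM with BAY-876, 359.7 to 422.7 TPM with TNF and 300.2 to 341.9 TPM with both, and 16638 to 17696 normalized counts with vehicle and 21353 to 23018 with BAY-876 at 36 h. Summed tumour markers were 1313 to 1348 TPM in control, 1107 to 1120.0 TPM with BAY-876, 1313 to 1384 TPM with TNF and 1114 to 1197 TPM with both. The part of these markers' changes in the members' values was not tested. Levels are not compared between tables, which were normalized separately.

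In GENCODE M21 on GRCm38, Gdf15 lies at chr8:70629393-70632456 on the minus strand with up to 3 exons, and Adm2 at chr15:89322720-89324731 on the plus strand, also with up to 3 exons. Stra6 spans chr9:58063788-58153996 on the plus strand with 14 transcripts and up to 19 exons. Car6 is at chr4:150187015-150201332 on the minus strand with up to 8 exons, and Avil at chr10:127000709-127020994 on the plus strand with up to 20 exons. Avil overlaps Tsfm on the opposite strand, and Stra6 overlaps Ccdc33 there and Gm16131 on its own strand. Whether the authors' counting used strand is not given, so reads of such partners might not be told apart. Tsfm, at 74.8 ± 0.954 TPM in control and 77.1 ± 1.31 TPM with BAY-876 (SD, n = 3), is far more abundant than Avil. The values are per gene and do not separate transcripts.

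The promoters were searched for elements of the stress and TNF pathways, as a description of their sequence. RefSeq promoter windows on GRCm38.p6, from 250 bases before to 50 after a start, were at hand for all 5 genes, 9 windows in all. The C/EBP-ATF response element, TGATGNAA, which ATF4 and CHOP can bind with C/EBP partners, was present on either strand in 1 of the 9 windows and in 3.97% of all 32851 promoters. The E-box CACGTG was present in 2 windows and in 7.15% of all promoters, the AP-1 element TGANTCA in none and in 7.81%, and the NF-kappaB consensus in 1 window and in 8.46%. The 250 bases before the start are shown for the 4 windows that hold a match, 5′ to 3′ on the gene's strand, with the match in capitals. A match is a string of letters and does not show that a factor binds there. The C/EBP-ATF element of Avil spans positions -17 to -10 from the start (chr10:127000459-127000708, plus strand).
Avil: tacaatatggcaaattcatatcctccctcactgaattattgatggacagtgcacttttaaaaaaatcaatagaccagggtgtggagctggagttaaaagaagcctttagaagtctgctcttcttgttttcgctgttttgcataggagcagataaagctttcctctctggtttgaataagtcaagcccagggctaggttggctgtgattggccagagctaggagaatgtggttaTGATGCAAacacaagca
The E-box of Car6 spans positions -149 to -144 (chr4:150201136-150201385, minus strand).
Car6: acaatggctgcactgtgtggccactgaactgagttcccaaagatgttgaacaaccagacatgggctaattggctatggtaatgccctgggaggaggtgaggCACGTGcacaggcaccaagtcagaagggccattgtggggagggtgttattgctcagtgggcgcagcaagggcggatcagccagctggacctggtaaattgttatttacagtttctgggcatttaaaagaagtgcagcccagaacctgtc
The second Gdf15 start has an E-box at -83 to -78 (chr8:70632096-70632345, minus strand).
Gdf15: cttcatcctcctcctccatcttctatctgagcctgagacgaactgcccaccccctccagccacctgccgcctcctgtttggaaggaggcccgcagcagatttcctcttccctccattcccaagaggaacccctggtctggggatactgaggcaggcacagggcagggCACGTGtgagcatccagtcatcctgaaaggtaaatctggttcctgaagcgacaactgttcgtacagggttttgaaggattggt
The second Stra6 start has an NF-kappaB consensus match at -191 to -182 (chr9:58129099-58129348, plus strand).
Stra6: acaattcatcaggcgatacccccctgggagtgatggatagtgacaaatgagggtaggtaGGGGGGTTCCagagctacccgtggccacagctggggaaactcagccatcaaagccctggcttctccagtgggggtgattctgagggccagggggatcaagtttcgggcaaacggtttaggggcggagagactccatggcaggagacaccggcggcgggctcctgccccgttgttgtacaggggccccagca
Adm2 and the other windows of Gdf15 and Stra6 held none of the 4 motifs, which says only that these letters are not in those windows.

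With BAY-876 alone, all 5 genes were higher in every treated library than in every untreated library, at 36 h and at 32 h. At 36 h, 18.3% of the 12937 genes kept by the filter separated upward in this way and 18.4% downward, and 7.34% passed limma's test as higher and 7.1% as lower. At 32 h, 16.4% of 12780 genes separated upward and 34.5% downward, and 11.5% passed as higher and 25.8% as lower. Nothing is read from these shares, because the members were chosen as risers under BAY-876 and may have been chosen on these contrasts. Fold changes are on the log2(value + 1) scale, with the standard error of the fit, and understate the change of genes at low levels.

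Gdf15, the secreted cytokine, had 11.9, 21.4 and 19.1 normalized counts in the 3 vehicle libraries and 68.8, 63.7 and 86.1 with BAY-876 at 36 h. In the separate 32 h experiment it had 4.40, 3.32 and 3.95 TPM in control and 18.7, 16.7 and 17.1 TPM with BAY-876. The treated libraries stood well apart in both, and the log2 differences were 2.03 ± 0.27 and 1.93 ± 0.11 (SE, n = 3 per group). Among all genes kept, Gdf15 ranked 3 by rise at 32 h and 14 at 36 h.

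Adm2, the intermedin gene, had 70.0, 72.1 and 77.7 normalized counts with vehicle and 145.6, 129.8 and 120.9 with BAY-876. At 32 h it had 7.18, 7.96 and 6.91 TPM in control and 25.0, 20.2 and 21.8 TPM with BAY-876. Its difference was the smallest of the 5 at 36 h, where the log2 difference was 0.84 ± 0.15 (rank 235), and larger at 32 h, where it was 1.48 ± 0.10 (rank 12). The difference between the experiments was not tested.

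Stra6, the retinol uptake receptor, had 45.8, 38.3 and 36.7 normalized counts with vehicle and 135.0, 151.7 and 142.5 with BAY-876, a log2 difference of 1.81 ± 0.17. At 32 h its level was low, with 0.511, 0.686 and 0.858 TPM in control and 2.72, 1.68 and 1.78 TPM with BAY-876. The groups were still apart there, by 0.85 ± 0.25 on the log2 scale. With the small values, that figure depends on the added constant: the ratio of the group means was 3.01.

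Car6, the secreted carbonic anhydrase, went from 3.84, 5.85 and 9.58 normalized counts with vehicle to 60.9, 78.3 and 72.5 with BAY-876. Its log2 difference at 36 h, 3.34 ± 0.34, was the largest of the 5 genes and ranked 4 among all genes kept. At 32 h it had 1.01, 1.04 and 1.37 TPM in control and 4.95, 4.15 and 3.84 TPM with BAY-876, a log2 difference of 1.31 ± 0.13. Car6 reached 10 normalized counts in the 3 BAY-876 libraries of the 36 h experiment and in no vehicle library, so it passed the filter only through the group where it was high.

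Avil, the actin-binding advillin, had 4.47, 8.51 and 13.4 normalized counts with vehicle and 69.4, 67.0 and 56.4 with BAY-876, a log2 difference of 2.84 ± 0.37 (rank 7). At 32 h it had 0.570, 0.997 and 1.65 TPM in control and 3.23, 3.09 and 3.29 TPM with BAY-876. The treated libraries nearly coincided while the control libraries spread widely, and the log2 difference was 1.05 ± 0.31. The order of the 5 differences was thus not the same in both experiments: Car6 and Avil led at 36 h, and Gdf15 and Adm2 at 32 h. By ratios of group means at 32 h, which need no added constant, Gdf15 (4.50) was followed by Car6 (3.79), Adm2 (3.04), Stra6 (3.01) and Avil (2.99). In the 32 h table, where TPM allows levels of different genes to be compared, Adm2 at 22.3 ± 2.46 TPM and Gdf15 at 17.5 ± 1.05 TPM with BAY-876 were above Car6 (4.31 ± 0.571 TPM), Avil (3.21 ± 0.102 TPM) and Stra6 (2.06 ± 0.571 TPM).

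**Figure D1:**
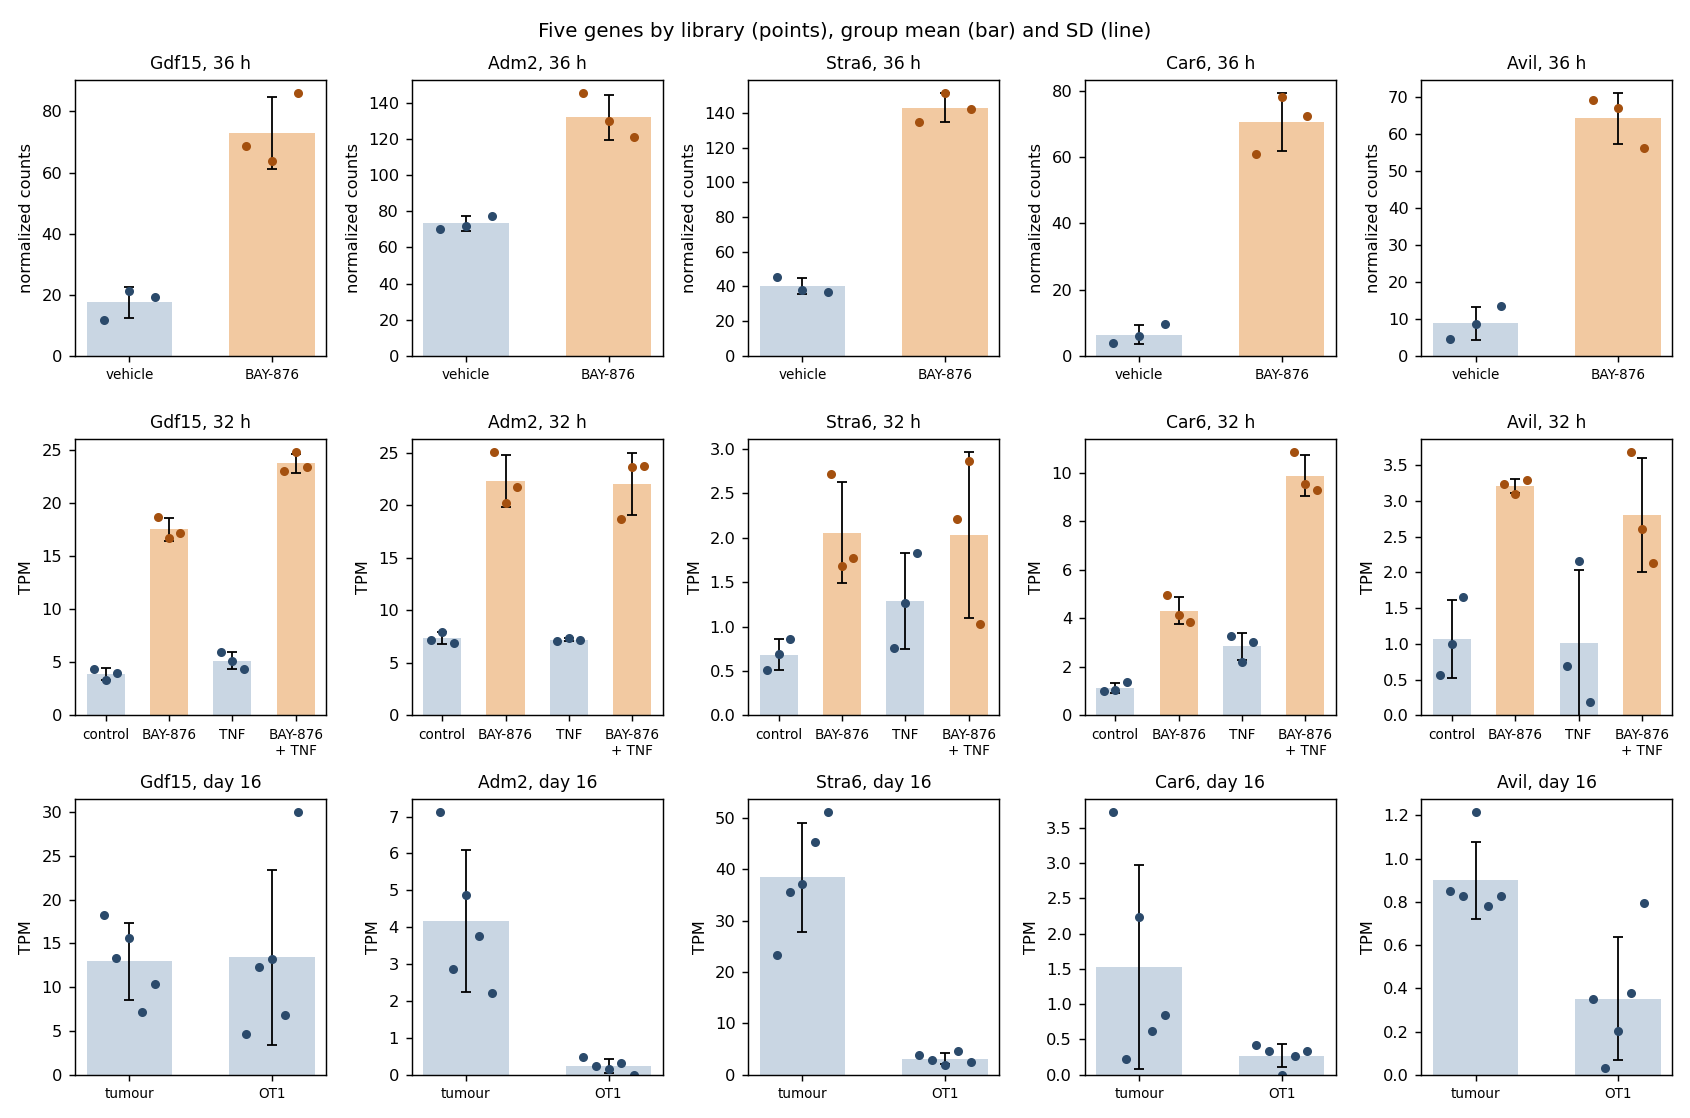
Value of each member in every library (points), by group on the horizontal axis, with the group mean and SD (bars and lines). The vertical axes start at 0 and are in normalized counts at 36 h and in TPM at 32 h and on day 16, so heights are not comparable between tables. Without TNF, every BAY-876 library lies above every untreated library for all 5 genes in culture. With TNF, the libraries with and without BAY-876 overlap for Stra6 and Avil.

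Whether TNF by itself moved these genes, and whether it altered the rise, can be asked at 32 h. Car6 rose with TNF alone, Gdf15 passed the test with a small rise that some settings lost, and the other 3 did not pass. That is 2 of 5 higher, where 19.4% of all genes tested were called higher and 26.1% lower. The comparisons at 32 h share libraries, and each member's values are therefore given side by side. If BAY-876 against control at 32 h served the choice, it favoured genes low in these control libraries and high in these BAY-876 libraries. That would raise the differences of TNF against control and lower those of the combination against BAY-876, and the p-values do not allow for it.

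Car6 had 3.27, 2.21 and 3.03 TPM with TNF, all above the control libraries, while 23.8% of all genes separated upward and 32.1% downward. It rose by 0.84 ± 0.13 on the log2 scale (limma adjusted p = 0.000356), or 2.50-fold by group means. With both agents it reached 10.8, 9.53 and 9.26 TPM, the highest of the 4 groups and above every BAY-876 library. It rose by 1.04 ± 0.13 over BAY-876 alone (limma adjusted p = 7.19e-05). The authors' deposited table gives log2 fold changes of 1.39 for TNF against control (adjusted p = 0.00715) and 1.25 for the combination against BAY-876 (adjusted p = 3.21e-07).

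Gdf15 had 5.95, 5.08 and 4.36 TPM with TNF, and the lowest of these was below the highest control library. The log2 difference of 0.32 ± 0.11 had a limma adjusted p = 0.029, which rose above the threshold without control replicate 2 (0.115), control replicate 3 (0.0546), TNF replicate 1 (0.114) or TNF replicate 2 (0.0628). Over all alternatives the p lay between 0.00146 and 0.115, and the authors' deposited table gives 0.21 for this gene. With both agents Gdf15 stood at 23.1, 24.8 and 23.4 TPM, above every library with BAY-876 alone, and it rose by 0.42 ± 0.11 over the inhibitor (limma adjusted p = 0.00805, at most 0.0313 over all alternatives).

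Adm2 had 7.05, 7.34 and 7.17 TPM with TNF, close to its control values, and a log2 difference of -0.03 ± 0.10 (limma adjusted p = 0.862). With both agents it had 18.6, 23.7 and 23.8 TPM, which overlapped the BAY-876 libraries, and the difference from BAY-876 alone was -0.02 ± 0.10 (adjusted p = 0.884). Both differences are near 0 and changed sign under other settings. Stra6 and Avil each reached 1 TPM in 8 of the 12 libraries at 32 h, among them every library with BAY-876. Too few control and TNF libraries reached it to pass the filter, so both genes were tested only through the libraries where they were high. Their TNF tests are therefore weak. Stra6 had 0.759, 1.27 and 1.83 TPM with TNF and a difference of 0.42 ± 0.25 (limma adjusted p = 0.196). Avil had 0.686, 2.16 and 0.193 TPM with TNF, which spanned more than the range of the 3 control libraries, and a difference of -0.13 ± 0.31 (adjusted p = 0.764). For neither gene did the combination pass the test against BAY-876, with -0.05 ± 0.25 for Stra6 (adjusted p = 0.898) and -0.17 ± 0.31 for Avil (adjusted p = 0.696). Thus 2 of 5 members were called higher with the combination than with BAY-876 alone, where 19.3% of all genes were called higher and 24.8% lower. The libraries of Gdf15 and Car6 did not overlap either, which held upward for 22.7% of all genes and downward for 29.9%.

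In the presence of TNF, all 5 members had a higher mean with BAY-876 than without it. The libraries of 3 of them, Gdf15, Adm2 and Car6, did not overlap with those of TNF alone, which held upward for 14.4% of all genes and downward for 30.5%. By limma's test 10.4% of all genes rose in this comparison and 23.6% fell. Nothing is read from these shares, since the genes had been chosen as risers with the inhibitor.

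Gdf15 was 4.63-fold higher by group means than with TNF alone, at 23.7 ± 0.915 against 5.13 ± 0.795 TPM (SD, n = 3), a log2 difference of 2.02 ± 0.11 that ranked 4 among all genes. Adm2 was 3.06-fold higher, at 22.03 ± 2.93 against 7.19 ± 0.145 TPM, with a difference of 1.48 ± 0.10. Car6 was at 9.87 ± 0.837 against 2.84 ± 0.556 TPM, with a difference of 1.51 ± 0.13. These 3 stood clear of their TNF libraries, as they had of the control libraries without TNF.

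Avil was at 2.80 ± 0.794 against 1.01 ± 1.02 TPM, a difference of 1.02 ± 0.31, and its lowest combination library, at 2.13 TPM, was under the highest TNF library. Without TNF replicate 3 its difference was 0.70. Stra6 had 2.21, 2.86 and 1.03 TPM with both agents, so that 1 library fell among those with TNF alone, and its difference was 0.38 ± 0.25. It ranked 900 among all genes by this difference, and 138 without TNF.

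The interaction is the BAY-876 difference among TNF-treated cells less that among cells without TNF. It contains contrasts that may have served the choice of the members and is given without a test. It was 0.10 ± 0.15 for Gdf15, 0.00 ± 0.15 for Adm2, 0.20 ± 0.19 for Car6 and -0.04 ± 0.44 for Avil, each within about its standard error. For Stra6 it was -0.47 ± 0.35. Of all genes, 0.736% passed the interaction test upward and 0.822% downward.

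**Figure D2:**
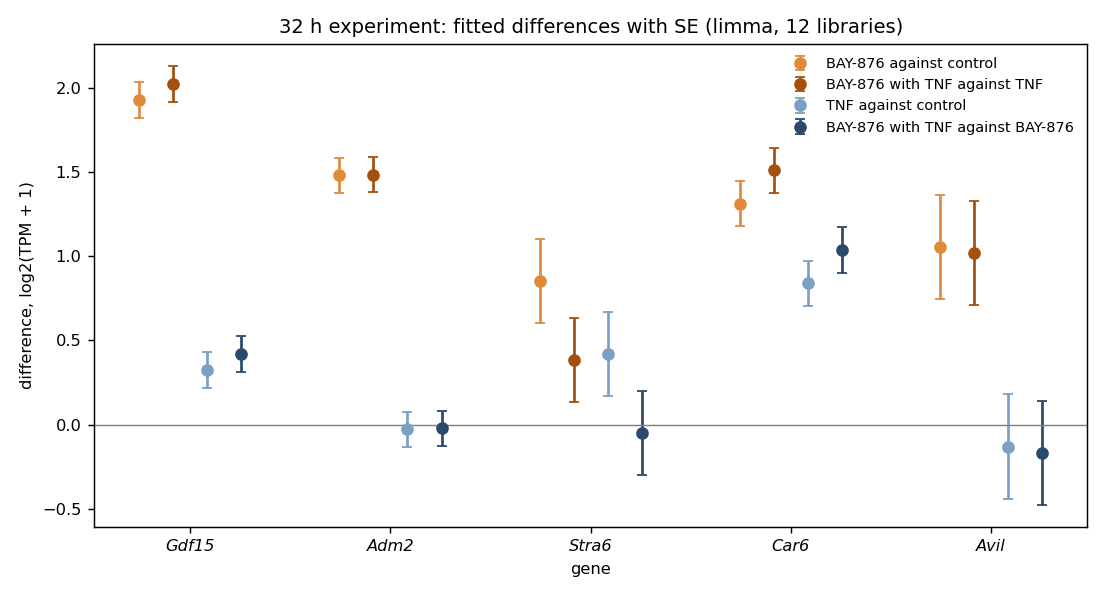
Log2 differences of log2(TPM + 1) between groups of the 32 h experiment for the 5 members, with the standard error of the limma fit (lines), for 4 comparisons in separate colours. Gdf15 and Car6 lie above 0 in all 4, and the TNF differences of Adm2, Stra6 and Avil lie within 2 standard errors of 0.

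The genes of the pathways around the members were counted in lists for the combination against TNF alone. Over all genes, 10.4% rose there and 23.6% fell, with a median log2 difference of -0.08. For BAY-876 in the presence of TNF, 19 of the 20 measured genes of the ATF4 and CHOP response rose and 0 fell, with a median log2 difference of 0.88. Aldh1l2, a mitochondrial folate enzyme, rose by 1.88 ± 0.11, from 30.3 ± 4.31 to 114.3 ± 17.2 TPM (limma adjusted p = 8.2e-07). Cth, which makes cysteine from cystathionine, rose by 1.75 ± 0.08 (adjusted p = 2.18e-07). The transcription factors Atf5 and Atf3 both rose by 1.62 (adjusted p = 7.14e-07 and 5.46e-06), and Ddit3, which encodes CHOP, by 1.52 (adjusted p = 2.18e-07). Atf4 itself went from 566.4 ± 9.39 to 1038 ± 50.9 TPM, a smaller rise of 0.87.

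The same list held 15 of 20 higher and 0 lower with BAY-876 alone at 32 h (median 0.75, against -0.09 over all genes), and 18 of 19 higher and 0 lower at 36 h (median 0.91, against -0.00). Of all genes, 11.5% rose and 25.8% fell at 32 h, and 7.34% rose and 7.1% fell at 36 h. After quantile normalization the list had 17 of 20 higher at 32 h and 16 of 19 at 36 h, with 0 lower in both. At 36 h Ddit3 went from 171.5 ± 12.1 to 432.8 ± 13.9 normalized counts, and Atf4 passed with a rise of only 0.15. With TNF alone 4 of 20 rose and 10 fell, where 19.4% of all genes rose and 26.1% fell, and the median was -0.13 against -0.06 over all genes. After quantile normalization 5 rose and 9 fell. Ddit3 fell (-0.27), as did Aldh1l2 (-0.86) and Atf5 (-1.13), while Atf3 rose by 0.88 (limma adjusted p = 0.00018), as Car6 did. The list was assembled with the earlier results of these data known, so its direction is not independent evidence.

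Of 8 measured other genes tied to CHOP, 5 rose and 2 fell with BAY-876 in the presence of TNF (median 0.37). Trib3, a pseudokinase, rose by 1.60, Chac1, which degrades glutathione, by 1.43, and Ppp1r15a, which directs the removal of phosphate from eIF2alpha, by 0.82. These 3 are also in the list above. Bcl2l11, which encodes the death protein BIM, fell by 0.50 and the death receptor gene Tnfrsf10b by 0.44. None of the 4 eIF2alpha kinase genes rose (median -0.15), and Eif2ak2, the kinase that senses double-stranded RNA, fell by 0.41 (limma adjusted p = 0.00193).

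Gdf15 is also a p53 target. Of 15 measured p53 targets, 3 rose and 4 fell with BAY-876 in the presence of TNF (median -0.01). Bbc3, which encodes the death protein PUMA, rose by 0.68, and Polk fell by 0.64, Phlda3 by 0.55 and Ccng1 by 0.48. At 36 h with BAY-876, 3 of 15 rose and 1 fell, where 7.34% of all genes rose and 7.1% fell. The median was 0.18 against -0.00 over all genes. The largest of these rises was that of Cdkn1a, by 1.17 (limma adjusted p = 7.92e-05). With BAY-876 alone at 32 h, Cdkn1a had 0.13 (adjusted p = 0.512). There 2 of 15 targets rose and 3 fell, where 11.5% of all genes rose and 25.8% fell, and the median was -0.07 against -0.09. With the combination against BAY-876, 9 rose and 3 fell, where 19.3% of all genes rose and 24.8% fell. The median there was 0.26 against -0.05 over all genes. With TNF alone 10 of 15 rose and 2 fell, where 19.4% of all genes rose and 26.1% fell. The median was 0.34 against -0.06, and the largest rise was that of the death receptor gene Fas, from 0.167 ± 0.154 to 9.15 ± 1.05 TPM. The part of p53 in the values of Gdf15 was not tested.

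**Figure D3:**
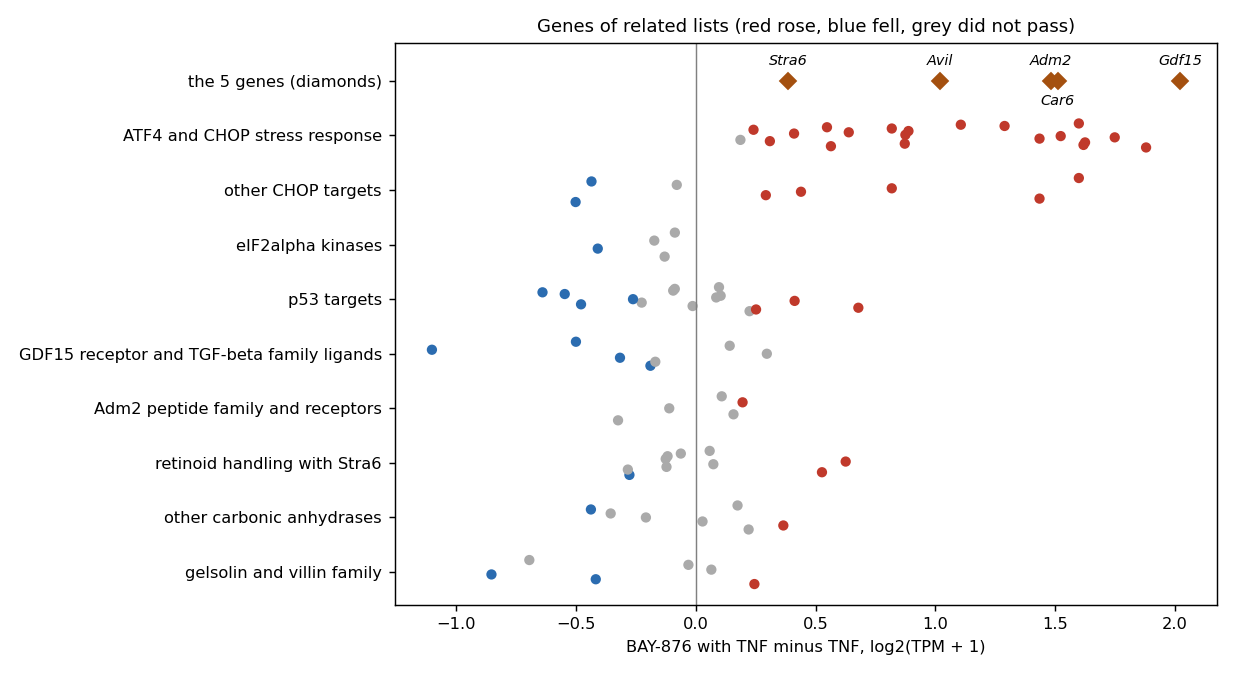
Log2 differences for BAY-876 with TNF against TNF alone, for the measured genes of each pathway list (points) beside the 5 members. Red points rose and blue points fell by limma's test, grey points did not pass, and the genes of the ATF4 and CHOP list lie above 0 while the p53 targets lie on both sides of it.

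The receptor side of the members was followed in the same way. Gfral was listed at 0 in all 28 libraries, and Ret at 0 or close to it in culture, so neither could be compared. Of 7 measured ligands and processing genes of the TGF-beta family, 0 rose and 4 fell with BAY-876 in the presence of TNF (median -0.19). Tgfb1 went from 18.6 ± 1.86 to 8.11 ± 0.958 TPM, and fell by 1.10 (limma adjusted p = 5.26e-05), Tgfb3 by 0.50, Gdf11 by 0.32 and Bmp1, a protease that processes collagen and growth factors, by 0.19. At 36 h, however, Tgfb1 rose by 0.80 with BAY-876 (adjusted p = 0.00962).

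Adm, the adrenomedullin gene, is the relative of Adm2 that the cells expressed most. It rose from 1572 ± 93.8 to 2710.0 ± 99.1 normalized counts with BAY-876 at 36 h, by 0.79 (limma adjusted p = 0.000286). At 32 h it was at 40.1 ± 2.22 TPM in control, 56.2 ± 8.44 TPM with BAY-876, 24.9 ± 3.25 TPM with TNF and 20.6 ± 8.67 TPM with both. It fell by 0.67 with TNF (adjusted p = 0.0247) and by 1.47 with the combination against BAY-876 (adjusted p = 0.000196), where Adm2 had -0.02. The receptor gene Calcrl and its partner Ramp2 were measured, at 5.97 ± 0.585 and 9.00 ± 1.21 TPM with TNF, and did not pass the test with BAY-876 added. Pam, the enzyme that amidates such peptides, rose by 0.19, the single riser of 5 measured genes (median 0.11, with 0 falling).

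For Stra6, 2 of 10 measured genes of retinoid handling rose with BAY-876 in the presence of TNF and 1 fell (median -0.09). Rbp4, whose product is the retinol carrier that STRA6 binds, went from 48.1 ± 7.21 to 74.7 ± 10.6 TPM (adjusted p = 0.00328, limma), and it also rose with BAY-876 alone at both times, by 0.64 at 36 h and 0.76 at 32 h. Crabp2, a carrier of retinoic acid inside the cell, rose by 0.53. Crabp1 fell by 0.28, a call that was lost after quantile normalization. Lrat, which stores retinol as esters, was listed at 0 in every culture library.

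Of 7 other carbonic anhydrases measured, 1 rose and 1 fell with BAY-876 in the presence of TNF (median 0.03). Car12, a membrane form, stood at 4.81 ± 0.395 TPM in control, 6.01 ± 0.508 TPM with BAY-876, 11.5 ± 0.781 TPM with TNF and 15.0 ± 0.605 TPM with both, so that, like Car6, it was highest with both agents. It rose by 0.27 with BAY-876 (limma adjusted p = 0.0295), by 1.10 with TNF, by 0.36 over TNF alone (adjusted p = 0.00705) and by 1.19 over BAY-876 alone, while at 36 h with BAY-876 it fell by 0.34. Car13 rose by 0.49 at 36 h, close to the threshold (limma adjusted p = 0.0494). Of the 5 measured at 36 h, 2 rose, and 1 after quantile normalization. Car5b, a mitochondrial form, rose by 1.14 at 36 h and fell by 0.44 over TNF alone, a fall that was lost after quantile normalization. Of the 6 measured relatives of Avil, Capg rose by 0.24, and Gsn, the gelsolin gene, fell by 0.85 and Flii by 0.42 (median -0.23).

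The genes whose levels over the 12 libraries of the 32 h experiment ran most like each member were found by the root mean square difference of centred log2(TPM + 1) profiles, among 11033 genes. For Adm2 they were Ddit3 (0.169), Ndrg1 (0.206) and Lgals3 (0.212), where the median over all genes was 0.824. For Gdf15 they were Adm2 (0.349), Angptl6 (0.370) and Cth (0.370), against a median of 1.08. For Car6 the nearest was Atf3 (0.227), followed by the lipid synthesis genes Fasn (0.312) and Elovl3 (0.313), against a median of 0.927.

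Atf3 shared with Car6 a rise with each agent and the top level with both: 3.48 TPM in control, 8.02 TPM with BAY-876, 7.25 TPM with TNF and 24.3 TPM with both, as group means. For Stra6 the nearest were Padi4 (0.204), Cep63 (0.227) and Armc6 (0.234), with a median of 0.516, and for Avil they were Nudt8 (0.318), P2rx3 (0.320) and Acot2 (0.322), with a median of 0.699. Members with small changes lie nearer to all genes by this measure, so the distances are not comparable between members. The 12 libraries include contrasts that may have been used in the choice, and these profiles are a description.

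On day 16 the 5 genes could be read in sorted cells without any inhibitor. Stra6 fell in OT1 cells relative to tumour cells, Gdf15 did not pass the test, Adm2 reached 1 TPM in tumour cells only, and Car6 and Avil were low in both. By limma, 44.4% of all 13511 genes tested were called lower in OT1 and 30.1% higher, and 37.8% separated downward and 25.3% upward. In bulk samples, fewer cells of a type and less RNA per cell cannot be told apart.

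The OT1 libraries carried T cell markers at a summed 1932 to 3253 TPM, against 3.47 to 5.64 TPM in tumour cells, and tumour markers at 45.9 to 198.8 TPM against 1500 to 1779 TPM. They also held other cells' RNA: 8 myeloid markers summed to 781.5, 3804, 1821, 2359 and 9846 TPM in OT1 replicates 1 to 5, against 31.0 to 100.2 TPM in tumour cells. Summed erythroid markers were 65.0 to 2781 TPM in OT1 and 10.1 to 899.4 TPM in tumour cells, and fibroblast markers 27.0 to 84.1 TPM and 327.9 to 834.7 TPM. Results are therefore given with and without OT1 replicates 2, 4 and 5, which have the highest myeloid sums.

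Stra6 had 23.3, 35.6, 37.1, 45.3 and 51.2 TPM in tumour cells and 3.84, 2.96, 1.88, 4.61 and 2.53 TPM in OT1 cells. The groups were far apart, 12.2-fold by means, and the gene fell by 3.24 ± 0.23 on the log2 scale (limma adjusted p = 1.5e-07), or by 3.36 without those 3 OT1 libraries (adjusted p = 5.56e-06). Its mean was 38.5 ± 10.6 TPM in tumour cells and 3.16 ± 1.08 TPM in OT1 cells (SD, n = 5). Among the OT1 libraries, Stra6 was highest in replicates 1 and 4, which also had the highest tumour marker sums, at 198.8 and 162.6 TPM. The part of tumour RNA in the OT1 values was not tested. Rbp4 was at 74.9 ± 6.21 TPM in tumour cells and 5.44 ± 2.73 TPM in OT1 cells.

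Adm2 had 7.13, 2.87, 4.86, 3.77 and 2.22 TPM in tumour cells and 0.492, 0.232, 0.151, 0.312 and 0 TPM in OT1 cells. The groups did not overlap, and the log2 difference was -1.999 ± 0.23, or -1.90 without OT1 replicates 2, 4 and 5. Adm2 reached 1 TPM only in the 5 tumour libraries, so it passed the filter through the group where it was high, and no test is given. Its relative Adm was also higher in tumour cells, at 82.4 ± 23.8 TPM against 7.61 ± 5.63 TPM.

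Gdf15 had 18.3, 13.3, 15.6, 7.14 and 10.3 TPM in tumour cells and 4.66, 12.3, 13.2, 6.86 and 30.0 TPM in OT1 cells. The ranges overlapped, and the difference of -0.14 ± 0.41 had a limma adjusted p = 0.765. The highest OT1 value was in replicate 5, which also had the highest myeloid sum, and the lowest in replicate 1, which had the lowest. Between them the order differed: replicates 3, 4 and 2, by rising myeloid sum, had 13.2, 6.86 and 12.3 TPM. In tumour cells, replicates 5 and 4 had the highest myeloid sums (100.2 and 67.35 TPM) and the lowest Gdf15 (10.3 and 7.14 TPM). The part of myeloid RNA in the OT1 values was not tested. Without OT1 replicates 2, 4 and 5 the difference was -0.57 (adjusted p = 0.214).

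Car6 had 3.72, 0.218, 2.23, 0.617 and 0.845 TPM in tumour cells and at most 0.425 TPM in OT1 cells, where 1 library was listed at 0. It was below the filter of the fit, and an exact two-sided permutation test over the 10 libraries gave a difference of -0.82 with p = 0.0397. Avil had 0.849, 0.825, 1.22, 0.782 and 0.827 TPM in tumour cells and 0.0299 to 0.796 TPM in OT1 cells, with a difference of -0.51 and p = 0.0159 by the same exact test, whose smallest possible p is 0.00794. For both genes the lowest tumour library was under the highest OT1 library, and these 2 p-values are not adjusted. The exact test took the libraries as unpaired, and its p-values would not hold if same-numbered tumour and OT1 libraries came from the same animal. By replicate number, Avil was lower in OT1 throughout. Car6 was lower in OT1 except in replicate 2, with 0.218 TPM in tumour cells and 0.334 TPM in OT1.

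**Figure D4:**
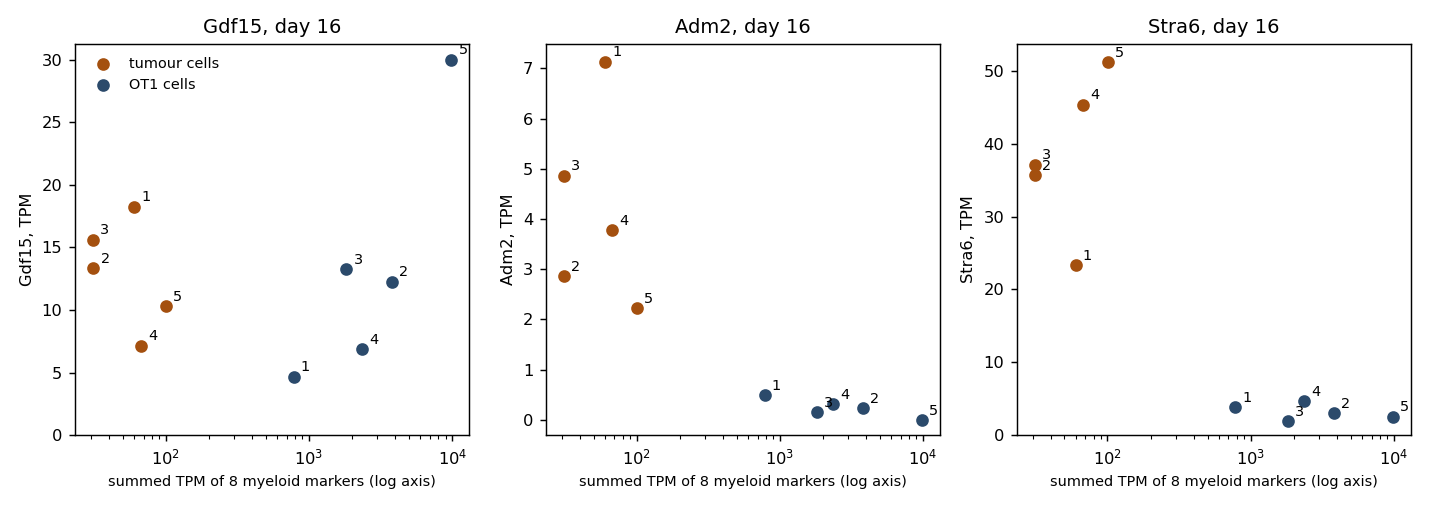
Gdf15, Adm2 and Stra6 in TPM (vertical axes) against the summed TPM of 8 myeloid markers (horizontal log axis) in the 5 tumour and 5 OT1 libraries of day 16, numbered by replicate. Gdf15 in OT1 is highest, at 30.0 TPM, in the library with the highest myeloid sum, while Stra6 and Adm2 in OT1 stay below every tumour library.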

How the data were processed

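RNA of 28 mouse libraries was sequenced from Trizol extracts with the SMARTER mRNA kit that the labels' protocols name. The submitters' processing notes list DESeq2 1.34.0, STAR 2.6.1d, mm10 and Salmon (0.14.1 at 36 h, 0.13.1 elsewhere) without their roles (annotation: not given in the sources used here). At 36 h the deposited values are counts normalized by the authors, a signal per gene, and their steps did not give back whole reads, which kept count tests out. For the other experiments the deposited values are TPM with a sum of 1000000 in each library, and as they carry no depth, no counting interval is given. Tables of the authors' own 32 h comparisons, also deposited, hold a log2 fold change and an adjusted p-value per gene, quoted as theirs. In the 32 h table, 24 columns of values match no sample and were not used. The treatment label of 2 libraries of BAY-876 with TNF names another compound number than the title, which set their group.

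Tests used log2(value + 1). The filter asked for 10 normalized counts or 1 TPM in 3 or more libraries (5 or more on day 16). The limma package (3.58.1, R 4.3.3) fitted a linear model with a mean-variance trend over all genes kept, the 12 libraries of the 32 h experiment in 1 fit, for 7 comparisons, with Benjamini-Hochberg adjustment and a threshold of 0.05. On day 16, Car6 and Avil were below the filter and went instead into an exact permutation test (two-sided) over the 10 libraries, taken as unpaired. The members and the 9 lists were chosen with earlier results of these data known. The text names the members, the 3 nearest genes of each, and relatives and receptors of the members. Of each list it names the 4 largest differences past the threshold in the combination against TNF. A few further genes (Ddit3, Atf4, Tnfrsf10b, Fas, Cdkn1a, Lrat, Tsfm, Cd14 and Lyz2) were named after their values were seen. Gene positions are from GENCODE M21, which held 96.4% of the symbols, and promoters from RefSeq on GRCm38.p6. No library was a copy of another, and replicates of a group correlated at 0.984 to 0.9892, 0.9853 to 0.989 and 0.9141 to 0.9886 in the 36 h, 32 h and day 16 tables.

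The fitting code was also run on artificial data with known changes. It recovered 50%, 82% and 42% of log2 changes of 0.5 at 36 h, 32 h and on day 16. For changes of 1 the shares were 58%, 98% and 84%, and for changes of 2 they were 92%, 100% and 98%. Small changes can thus be missed. Alternatives were an added constant of 0.1 TPM or 10 normalized counts, leaving out the filter, requiring mean levels of 5 TPM or 100 normalized counts, quantile normalization, replicate number as a block, separate fits per comparison and leaving out single libraries. Leaving out OT1 replicates 2, 4 and 5 was chosen after seeing the data.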

Additional observations from a re-analysis of the deposited data

Results flagged for a closer look

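Avil in tumour replicate 3 of day 16, at 1.22 TPM, stood apart from the other 4 tumour libraries, of which the nearest was at 0.849 TPM. Its gap to that library was 0.845 of the whole range of the group, above Dixon's critical value of 0.71 for 5 samples. Chance marks about 1 in 20 groups in this way, and 10 groups were looked at.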

How the results depend on the processing

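Every test of a member printed in the report kept its side of the threshold under all alternatives run, except 1. Gdf15 with TNF against control was 0.32 but missed the threshold with no filter (adjusted p = 0.0569) and with only the libraries compared (0.096), and its difference was 0.23 to 0.42 with each replicate left out. Avil for the combination against TNF, given with no test, was 1.02 with no filter and with only the libraries compared, and 0.70 to 1.40 with each replicate left out. With the other added constant, the BAY-876 differences were 1.60 for Gdf15, 1.61 for Stra6, 2.30 for Car6 and 2.01 for Avil at 36 h, and 2.15, 1.45, 1.84 and 1.60 at 32 h. Quantile normalization gave 2.09 for Gdf15 and 1.65 for Adm2 at 32 h. Differences near 0 changed sign. After quantile normalization they were 0.15 for Adm2 and 0.0752 for Avil with TNF, 0.0241, 0.14 and 0.0227 for Adm2, Stra6 and Avil in the combination against BAY-876, and -0.0386 for Gdf15 and -0.12 for Adm2 in the interaction. With the other constant the interaction was -0.87 for Stra6, -0.0602 for Car6 and 0.21 for Avil. With each replicate left out, TNF gave -0.0642 to 0.0261 for Adm2 and -0.51 to 0.19 for Avil, the combination against BAY-876 gave -0.0889 to 0.0878 for Adm2 and -0.25 to 0.22 for Stra6, the interaction gave -0.0628 to 0.11 for Adm2 and -0.35 to 0.35 for Avil, and OT1 against tumour cells gave -0.48 to 0.13 for Gdf15. The cause was not tested. Counts over all genes moved more. With each replicate left out, genes called at 36 h numbered 355 to 1224 higher and 293 to 1170 lower, and in the interaction 47 to 131 and 62 to 119. Without OT1 replicates 2, 4 and 5, 2491 genes were called higher, against 4061. The filter still asked for 1 TPM in 5 libraries there, so genes found in OT1 cells alone dropped out, and 1 of 6 T cell markers was kept. That count is therefore lower in part by the filter. Quantile normalization shifted the split of calls at 32 h: 2238 higher and 2305 lower with BAY-876 (1473 and 3303 as reported), 2877 and 2742 with TNF (2485 and 3341), 1860 and 2048 for the combination against TNF (1323 and 3018), and 2851 and 2690 against BAY-876 (2469 and 3175). Same-numbered libraries of different groups deviated with correlations of -0.0742 to -0.0194 (36 h), -0.192 to 0.1201 (32 h) and 0.0453 to 0.1108 (day 16). Of the comparisons of a library with another group, 0 of 6, 14 of 36 and 7 of 10 were highest with its own number. In culture the numbers were therefore not taken as pairs. On day 16 most were highest with their own number, and whether same-numbered tumour and OT1 libraries came from the same animal is not given. The main fit and the exact tests took them as unpaired. With the replicate block, 820 genes were called higher and 743 lower at 36 h (949 and 919 without it), and no member changed its call. Low levels limit Car6, Avil and Stra6 most, since the depth of the TPM tables is unknown.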
